A study of Glycine max with 4 samples.

Results

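Binding sites of the soybean protein GLYMA.13G317000 that lie in runs of 3 or more, each at most 2000 bp from the next, are described here. A site was a region in which peaks of both ChIP replicates overlapped by at least 1 bp on the 20 chromosomes, placed at the summit of its widest replicate 1 peak. Of 28745 such shared sites, 1640 (5.71%) lay in 506 runs, called chains below. The other sites were 5306 in pairs and 21799 with no shared neighbour within 2000 bp, called unchained. Members were chosen by measured values, namely the positions of replicate 1 summits and the presence of a peak in both replicates, so the number of chains, their size and their replicate 1 spacing are a description and not a finding.

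BZIP67 stands in the name of each peak. It was read as another name of the protein, which no label says. Basic leucine zipper proteins pair up through their zippers and grip DNA with the basic regions, often where the sequence ACGT lies at the centre of the site. In Arabidopsis, bZIP67 acts in maturing seeds, where it takes part in switching on genes for storage protein and for fatty acid desaturation. Plant regulatory regions often hold several sites for such a factor close together, and chains of peaks are one way in which closely spaced binding can show in ChIP-seq.

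The series holds 2 ChIP and 2 input libraries from embryos of the cultivar Williams 82 at early maturation, dissected from greenhouse seeds 6 to 7 mm long. All 4 libraries are from that untreated cultivar, and the inputs are chromatin that met no antibody. The antibody had been made against a peptide from the protein, so signal from other proteins it may recognise cannot be told apart. Chromatin had been sheared to 100 to 500 bp. The authors gave 47284 peaks for replicate 1 and 30289 for replicate 2. Each peak has a fold, which is the authors' own value and divides the ChIP signal at its summit by the local background. The fold and the −log10 p of a peak together gave the number of ChIP fragments over its summit (pileup) and the local background in fragments. With 2 libraries of 1 condition no test between groups was possible, so values are given for each replicate with the SD over both (n = 2), and no p-value is given. No source used here gives the reads per library.

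Most chains were short. Chains of 3 made up 413 of the 506, with 1239 sites (75.5% of members), and 75 chains had 4 sites. Chains of 5 numbered 12, chains of 6 numbered 4, and there was 1 chain of 8 and 1 of 9. The median chain ran 2629 bp from its first to its last summit, with quartiles of 2128 and 3176 bp and a maximum of 9707 bp. The chains were far apart from one another, with a median distance of 642612 bp to the next, and only 6 chains lay within 10 kb of the following one.

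The 1134 neighbouring pairs were a median of 1207.5 bp apart in replicate 1 (quartiles 879.5 and 1580.75 bp). At the same pairs, the replicate 2 summits were a median of 1201.5 bp apart (quartiles 880 and 1576 bp). Every site needs overlapping peaks of both lists, so these gaps are tied to each other by the choice of members. The gap of a pair differed between replicates by a median of 36 bp and by at most 50 bp in 712 pairs (62.8%). It differed by more than 500 bp in 6 pairs, and 17 pairs exceeded 2000 bp in replicate 2. No preferred distance stood out, since counts per 100 bp stayed between 59 and 91 from 600 to 2000 bp in replicate 1. Few pairs were closer than 500 bp in replicate 1, and the smallest gap was 398 bp in replicate 1 and 375 bp in replicate 2. Peaks that overlap count as 1 region. Stretches of DNA outside any shared region separated the neighbours, with a median of 686.5 bp and a minimum of 24 bp. Chains were not evenly spaced. In chains of 3, the larger gap was a median of 1.43 times the smaller, and in 58 (14.0%) the gaps were within 1.1 times of each other.

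**Figure D1:**
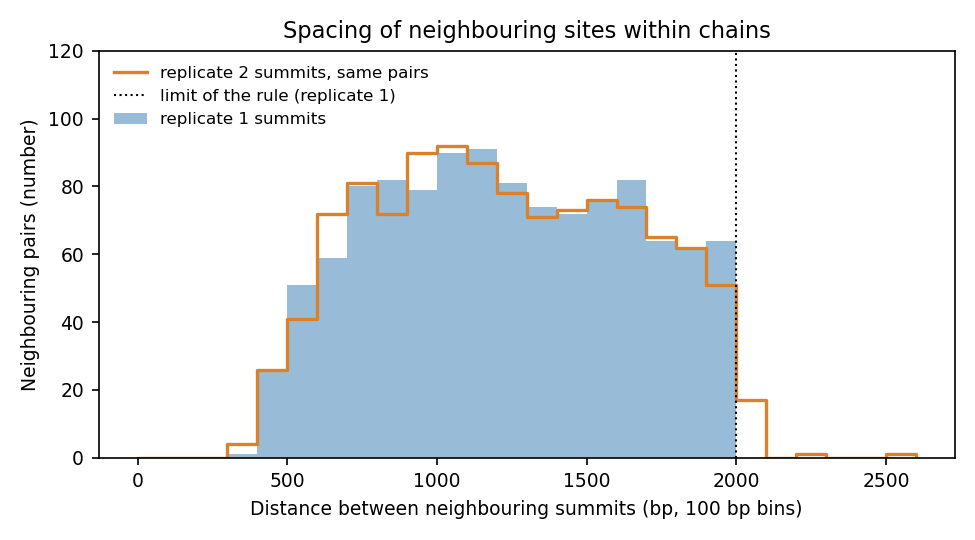
Number of neighbouring pairs of chained sites (vertical axis) by the distance between their summits in bp (horizontal axis, 100 bp bins), with replicate 1 summits as filled bars and replicate 2 summits of the same 1134 pairs as a line. Both replicates show a broad spread without a preferred distance, with medians of 1207.5 and 1201.5 bp, and the dotted line marks the limit of 2000 bp that was applied to replicate 1.

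Chained sites had folds close to those of sites without close neighbours. In replicate 1 the median fold was 6.44 at chained sites, 6.58 at sites in pairs and 6.51 at unchained sites. In replicate 2 these medians were 4.87, 5.10 and 5.01. The quartiles of chained sites, 4.70 and 9.41 in replicate 1 and 3.80 and 7.32 in replicate 2, lay close to those of unchained sites, 4.82 and 9.40 and 3.87 and 7.33. Because sites crowd into some parts of the genome, chained and unchained sites were also compared within the same 1 Mb bins. Over 317 bins that held both, the median ratio of chained to unchained median fold was 0.978 in replicate 1 and 0.971 in replicate 2, a mean of 0.975 ± 0.00477 (SD, n = 2). Bins scattered widely around these medians, with quartiles of 0.802 and 1.21 in replicate 1 and 0.815 and 1.20 in replicate 2. Chained sites had the higher median in 145 bins in replicate 1 and in 148 in replicate 2. By chromosome, their median was higher than that of unchained sites on 8 of 20 chromosomes in replicate 1 and on 11 in replicate 2, and the direction was the same in both replicates on 11 chromosomes, 5 higher and 6 lower. Of the chained sites, 174 (10.6%) were in the top 10% of shared sites by mean fold, a mean fold of at least 12.0, beside 10.0% of all shared sites. That share is near the background.

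**Figure D2:**
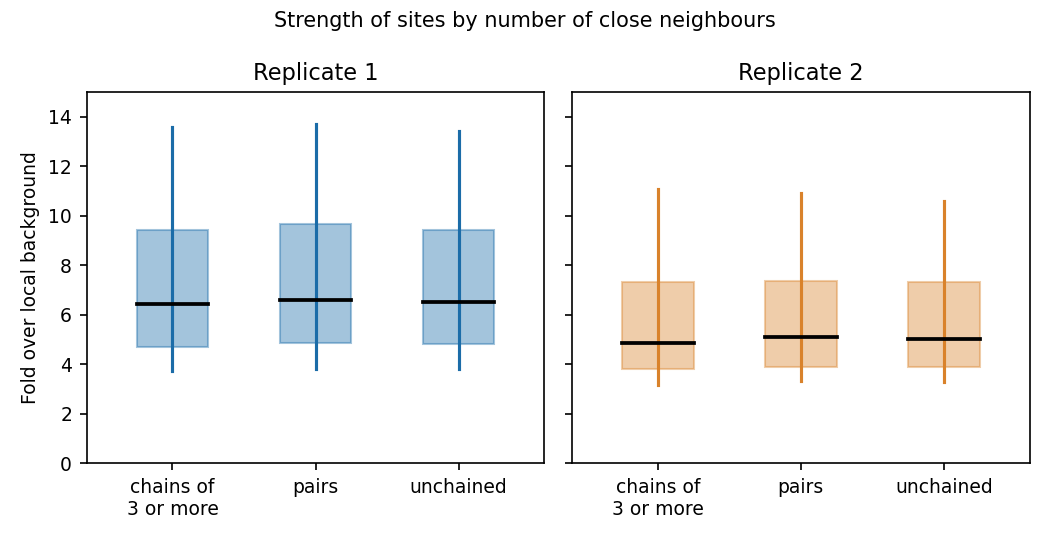
Fold over local background (vertical axis) of sites in chains of 3 or more, sites in pairs and unchained sites, in replicate 1 (left) and replicate 2 (right). The bars across the boxes are medians, boxes span the quartiles and lines the 10th to 90th percentiles; the medians of the 3 kinds lie between 6.44 and 6.58 in replicate 1 and between 4.87 and 5.10 in replicate 2.

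Other properties of the peaks were also close. The median pileup was 75 fragments at chained sites and 72 at unchained sites in replicate 1, and 45 at both in replicate 2. Summits of the replicates lay a median of 22 bp apart at both kinds of site. Replicate 2 had a median of 0.804 times the fold of replicate 1 at chained sites and 0.806 times at unchained sites. Across chained sites the Spearman correlation of the fold between replicates was 0.848 (n = 1640), and 0.827 across unchained sites (n = 21799). Sites share libraries and are not independent, so no p is given. The SD of a chained site's fold over both replicates was a median of 16.6% of its mean. This SD includes the generally lower folds of replicate 2 as well as the scatter of a site. Regions spanned a median of 448 bp at chained sites and 432 bp at unchained sites. Within 1 Mb bins the median ratio of region widths was 1.04, and chained sites were the wider in 181 of 317 bins. For the peaks of each replicate the ratio was 1.029 in replicate 1 (wider in 177 bins) and 1.003 in replicate 2 (161 bins).

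Strong and weak sites stood side by side within a chain. The strongest site had a median of 2.20 times the mean fold of the weakest (quartiles 1.58 and 3.02) and 1.40 times that of the second (quartiles 1.18 and 1.93). In 112 chains (22.1%) a single site led the second by at least 2 times, and in 72 the lead was under 1.1 times. In 404 of the 506 chains, sites lay on both sides of the median of shared sites, a mean fold of 5.75. In 49 chains every site was above it and in 53 every site was below. A site in the top 10% was present in 148 chains (29.2%), 2 or more such sites in 23, and 3 or more in 3 chains. No chain of the 506 had all its sites in the top 10%. Only 10.0% of all shared sites are in that class. A median splits the shared sites evenly, so sites unrelated in strength would also often lie on both sides of it. The counts and the ratios of folds were not compared with those of sets of unchained sites. They describe these chains, and nothing particular to chains is read from them.

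The strength of a site said little about that of its neighbour. Across 1097 neighbouring pairs within chains, without sites of high local background, the Spearman correlation of the mean fold was −0.053. Setting the replicate 1 fold of a site against the replicate 2 fold of the next gave −0.025. With those sites included (1134 pairs) the values were 0.022 and 0.046, so the sign depends on them. Again without sites of high local background, the correlation was 0.019 for shared sites 2000 to 5000 bp apart (4573 pairs). At 20000 to 50000 bp it was 0.011 (6128 pairs). The spread of strength within chains was as wide as that over lone sites. The SD of the log2 mean fold was 0.68 within chains and 0.66 over unchained sites. Without sites of high local background, closer pairs within chains were somewhat weaker at their stronger site. Among 205 pairs 400 to 800 bp apart the stronger site had a median mean fold of 7.00. In the next 3 ranges of 400 bp it had 8.13, 8.00 and 7.83. The weaker site of a pair had medians of 4.35, 4.52, 4.72 and 4.67 in the same ranges. Peaks that overlap count as 1 site, and the part of merging in these values was not tested.

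Replicates largely picked the same leading site. The strongest site by fold was the same in both replicates in 395 of 506 chains (78.1%, Wilson 95% interval 74.3 to 81.45%). The interval covers counting error only, since chains share the libraries and are not replicates. The strongest site was the same in all 112 chains with a lead of at least 2 times and in 13 of the 72 with a lead under 1.1 times. The lead is measured on the mean of both replicates, so a large lead makes a match more likely by construction. The full order of the folds matched in 242 of 413 chains of 3 (58.6%). Across unchained sites the fold also correlated between replicates (Spearman 0.827). The matches were not compared with those in sets of unchained sites, and nothing particular to chains is read from them. The leading site was not at a fixed place. In chains of 3 it was the first site in 123, the middle in 147 and the last in 143 in replicate 1, and 126, 142 and 145 in replicate 2. The middle site led in 35.0% ± 0.856 (SD, n = 2), beside the 33.3% that 1 place of 3 makes.

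The chain with the most sites and ordinary background lay on chromosome 18, with 8 summits from 2728583 to 2736986. Its strong sites were separated by weaker ones. The folds in replicate 1 were, in order, 4.16, 29.8, 10.1, 3.88, 23.6, 2.84, 9.85 and 22.3. In replicate 2 they were 4.47, 27.0, 8.67, 3.51, 24.1, 3.63, 4.92 and 19.7. The sites at 2730204, 2733092 and 2736986 were the high ones in both replicates, all at 19.7 or more, while the other 5 stayed at or under 10.1. The leading site, at 2730204, rested on 323 fragments in replicate 1 (exact Poisson 95% interval 289 to 360) and 229 in replicate 2 (200 to 261). Its mean fold was 28.4 ± 1.97 (SD, n = 2). The weakest, at 2734190, rested on 47 fragments (34.5 to 62.5) and 31 (21.1 to 44.0), with a mean fold of 3.24 ± 0.562. The gaps between the 8 sites were 1621, 663, 590, 1635, 1098, 1172 and 1624 bp in replicate 1, and 1565, 638, 669, 1601, 1042, 1204 and 1608 bp in replicate 2. This chain was also the seventh strongest of all by the mean over its sites, 12.7 ± 0.928, and it was the only one named for both its length and its strength.

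Chains of 6 sites with ordinary background were found on chromosomes 5, 12 and 6. On chromosome 5, the summits from 40535293 to 40540330 had folds of 9.37, 18.4, 12.5, 13.5, 9.26 and 5.71 in replicate 1. In replicate 2 these sites had 6.14, 15.1, 11.6, 7.55, 5.60 and 4.43. From the second site on, each site had a lower fold than the one before it in replicate 2. In replicate 1 the fourth was above the third. The SD of the fourth over the replicates was 4.20, which includes the shift between the libraries. A second chain on that chromosome, from 5947114 to 5953613, was of another make: the third site had folds of 16.1 and 19.0 in replicates 1 and 2, while the other 5 lay between 3.25 and 5.93. On chromosome 12, from 38081883 to 38088322, the fifth site led with folds of 20.6 and 14.5, and the first was the weakest with 3.34 and 3.67. On chromosome 6, from 7193275 to 7199908, the last site led with 10.4 and 11.8. In each of these 4 chains the same site led in both replicates.

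The remaining chains among the 10 with the most sites had 5 each. On chromosome 4, from 33579695 to 33583874, the leading site was the first in replicate 1, with a fold of 18.9, and the last in replicate 2, with 15.4. The first site varied by an SD of 6.31 around its mean of 14.4. As the replicates had different leaders, the leader is not resolved there. On chromosome 7, from 3835779 to 3841609, the leader changed as well, and 4 of its sites lay close together in strength, with mean folds of 7.91 to 9.83. The chains on chromosome 1, from 55372574 to 55377805 and from 55142137 to 55146621, kept their leading sites, with mean folds of 15.4 ± 2.83 and 12.2 ± 0.777.

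**Figure D3:**
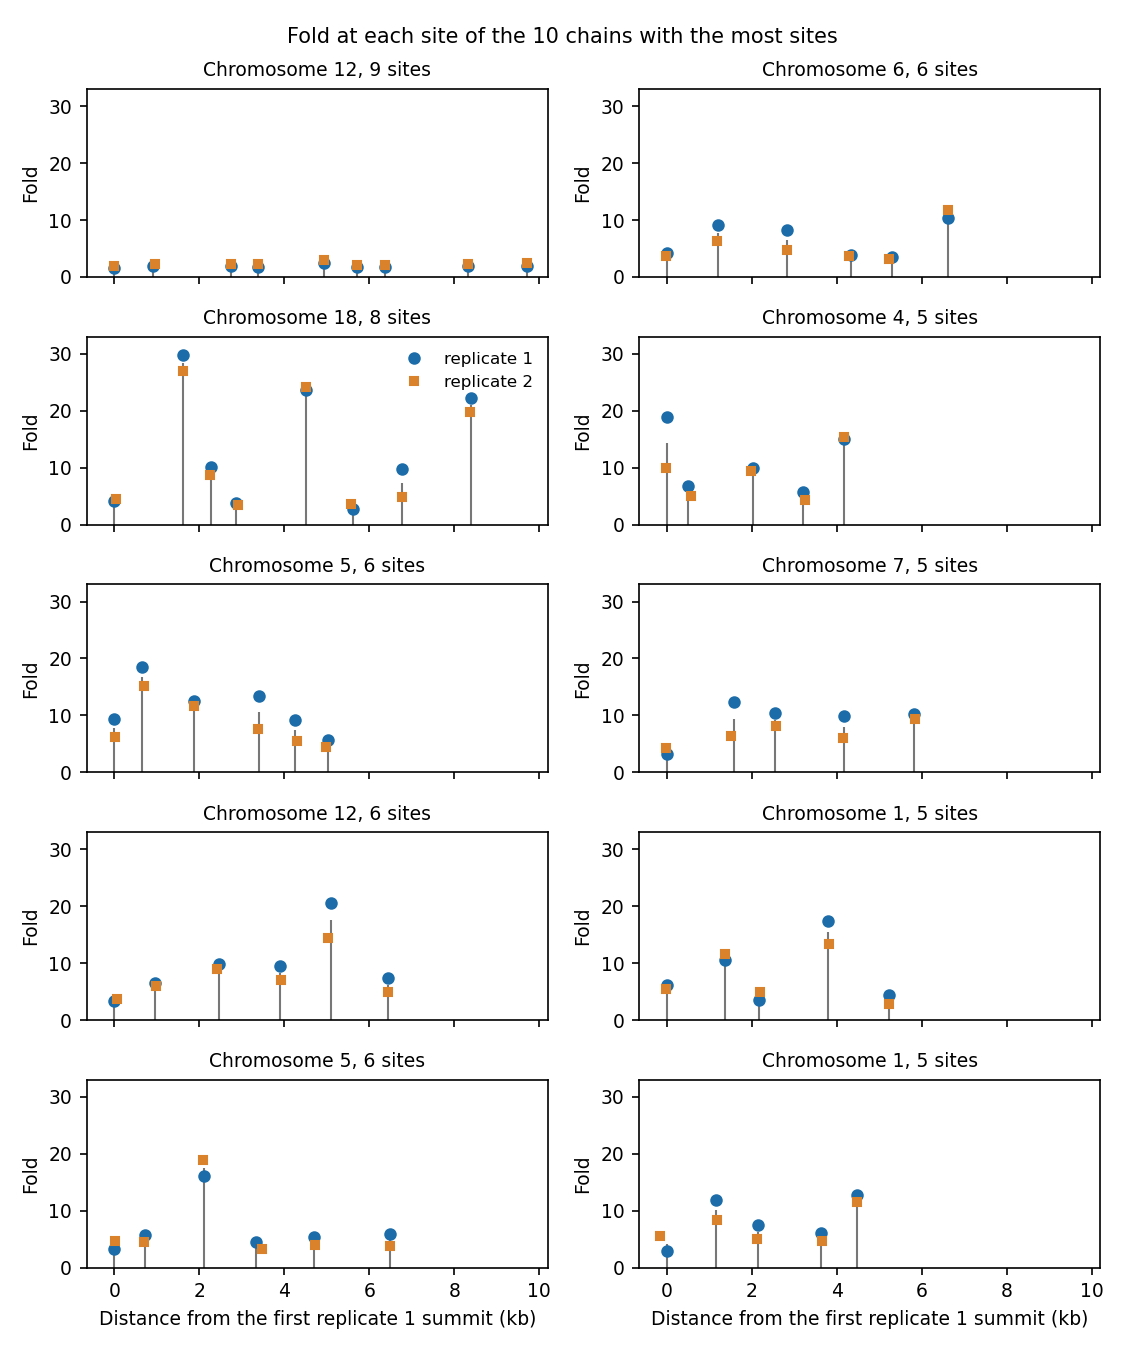
Fold over local background (vertical axes) at each site of the 10 chains with the most sites, by distance in kb from the first replicate 1 summit (horizontal axes), with circles for replicate 1, squares for replicate 2 and a grey line up to the mean of both. The chain of 9 sites on chromosome 12 stays at folds of 1.51 to 2.95, while the chain of 8 on chromosome 18 has 3 sites at 19.7 or more beside weak ones.

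Chains of 3 made up 413 of all 506 chains. The strongest chains by the mean over their sites were, with the exception of the chain of 8, all of that size. The first lay on chromosome 14 from 5470232 to 5472727, with a mean fold of 15.2 ± 2.88. Its folds were 4.06, 25.5 and 22.3 in replicate 1 and 3.16, 19.3 and 17.2 in replicate 2, so that strong neighbours 992 bp apart stood beside a weak site. On chromosome 17, from 11002998 to 11005196, the sites were more even, with 21.1, 15.7 and 13.3 in replicate 1 and 16.7, 12.0 and 10.5 in replicate 2. Its weakest site had a mean fold of 11.9, just short of the 12.0 that bounds the top 10%. On chromosome 2, from 36214864 to 36217652, the mean over the sites was 13.8 ± 0.438, and the third site was the weak one, at 5.46 and 6.44.

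The mean of a chain could rest largely on a single site. On chromosome 7, from 2729627 to 2732022, the middle site had folds of 31.1 and 31.7 and pileups of 344 (309 to 382) and 299 fragments (266 to 335), the highest mean fold of any chained site (31.4 ± 0.406). Its neighbours, 1227 bp before and 1168 bp after it, had folds of only 4.16 and 5.22 in replicate 1 and 3.75 and 6.01 in replicate 2. The other 5 of the 10 strongest were on chromosome 5 from 35129717 to 35132315 and from 26240019 to 26242954, on chromosome 8 from 2480661 to 2483580, on chromosome 16 from 27816355 to 27819593 and on chromosome 17 from 38979252 to 38981155. Their means over the sites ran from 12.5 to 12.9, with SDs over the replicates of 0.0200 to 2.97. In the chain on chromosome 5 from 26240019, a middle site with a mean fold of 24.4 stood between sites at 4.28 and 9.25. The chain on chromosome 16 had the highest mean of these 5 in replicate 1 (14.6) and the lowest in replicate 2 (10.4), so their order is not resolved. In all 10, the same site led in both replicates, and it was the middle one in 7 of the 9 chains of 3.

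The chain with the most sites of all was unlike those described so far. It had 9 summits on chromosome 12 from 39184185 to 39193892, with folds of only 1.51 to 2.49 in replicate 1 and 1.88 to 2.95 in replicate 2. Pileups were very high, at 167 to 408 fragments for replicate 1 and 163 to 398 for replicate 2, and so was the local background, at 86.7 to 216 and 69.2 to 173 fragments. For comparison, the median local background of chained sites was 10.1 fragments in replicate 1 and 7.81 in replicate 2. At the fourth, the sixth and the seventh site the pileups of the replicates were equal, at 341, 198 and 315 fragments in each.

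Such sites recurred among the members. A local background above 30 fragments in either replicate was found at 42 chained sites (2.56%), at 17 sites in pairs (0.320%) and at 148 unchained sites (0.679%), beside 0.720% of all shared sites. They were not spread evenly, since 32 of the 42 lay in 7 chains made up of such sites alone, and the other 10 in 7 chains with ordinary neighbours. The 7 chains lay on chromosome 1 (5 sites from 53484596 to 53488795), chromosome 9 (4 sites from 39626378 to 39630094), chromosome 12 (the 9 sites above), chromosome 13 (3 sites from 38815280 to 38817348), chromosome 15 (3 sites from 47403570 to 47406699) and chromosome 18 (3 sites from 33806654 to 33808701 and 5 from 33817109 to 33821384). Sites of 1 chain share their surroundings, so these shares rest on few independent places and carry no interval.

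These sites also behaved differently between the replicates. They were picked by local background, by which the fold divides, so their low folds are tied to that choice. Their median fold was 1.87 in replicate 1 and 2.23 in replicate 2, and 39 of 42 were higher in replicate 2, while only 279 of the other 1598 members were (17.5%). Their pileups were nearly equal in both replicates, with a median ratio of replicate 2 to replicate 1 of 0.983 (quartiles 0.971 and 0.995), against 0.634 (0.561 and 0.714) at the other members. Pileups were within 5% of each other at 36 of the 42 and at 13 of the 1598. The local background was lower in replicate 2 by a like factor at both kinds of member, with median ratios of 0.798 and 0.781. Their summits lay a median of 4 bp apart between replicates, against 22 bp at the other members. High-background sites outside chains had the same near equality, with pileups within 5% at 139 of 165. How duplicate and repeated reads were treated was not given in the sources used here. Pileups and folds of these sites may depend on it, and neither its part nor that of the local background was tested. Without these peaks 1585 members in 492 chains remained.

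**Figure D4:**
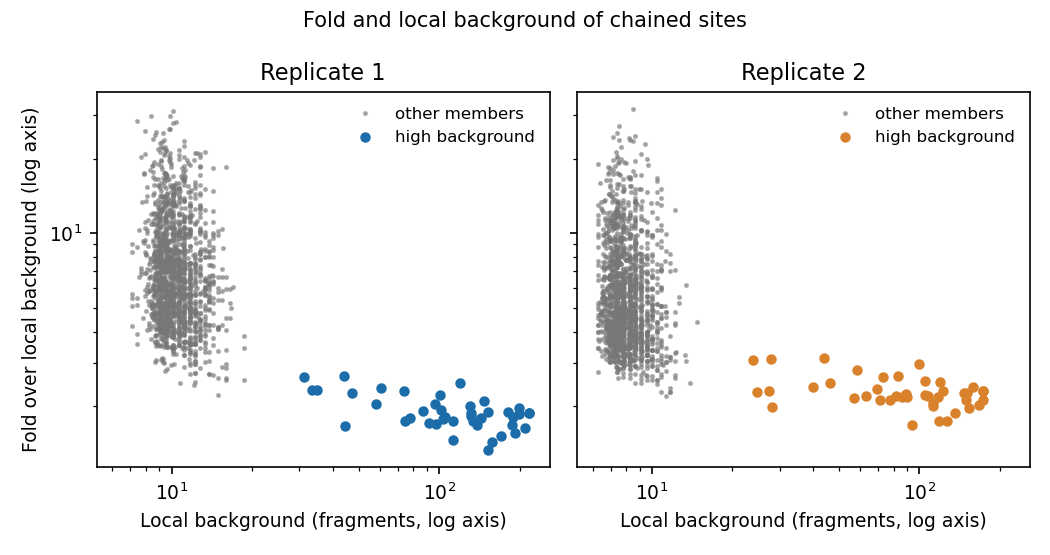
Fold over local background (vertical axis, log scale) against local background in fragments (horizontal axis, log scale) of the 1640 chained sites, in replicate 1 (left) and replicate 2 (right). The large points are the 42 sites with a background above 30 fragments in either replicate. Their folds were 1.32 to 2.64 in replicate 1 and 1.68 to 3.12 in replicate 2. The lowest folds of the other members, 2.21 in replicate 1 and 2.20 in replicate 2, lay within these ranges. The fold divides by the background that picked the 42 sites, so their low folds are tied to that choice.

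Chained sites, like all shared sites, were densest toward the ends of the chromosomes. The outer 20% at each end of the chromosomes held 1205 of 1640 chained sites (73.5%), beside 68.4% of all shared sites. The share was 71.7% for sites in pairs and 67.2% for unchained sites. Over 10 equal sections of chromosome length, the density of chained sites was 3.59 per Mb in the first, 0.274 per Mb in the sixth and 3.69 per Mb in the last. As a share of shared sites, chained sites varied less, from 3.39% in the sixth section, with 26 members among 768 sites, to 6.75% in the second and in the seventh. Bins of 1 Mb with members had a median of 58 shared sites, and those without had 10. Members count among the shared sites of their own bin, so these medians are tied to the choice of members. The part of density in the number of chains was not tested, and no test of clustering beyond density was made.

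**Figure D5:**
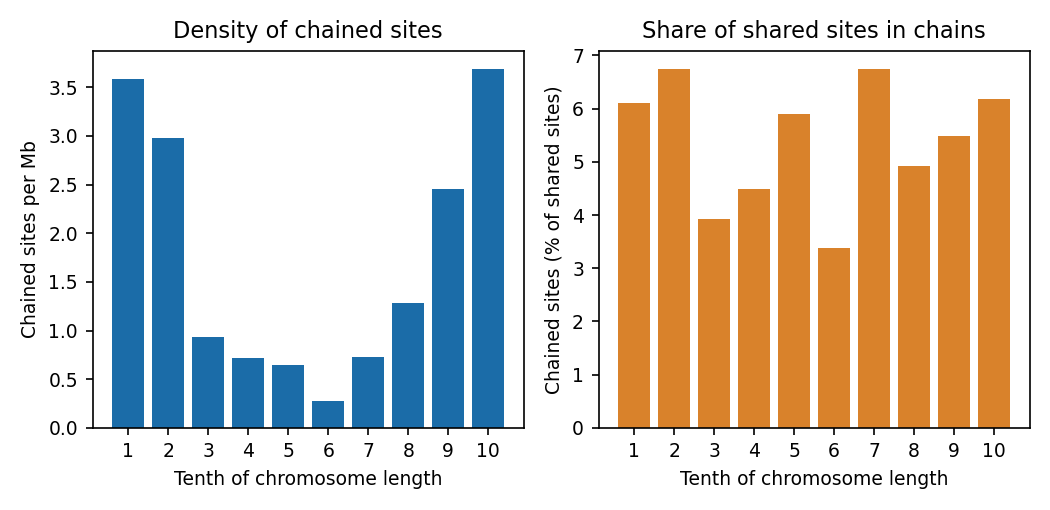
Chained sites per Mb (left) and chained sites as a percentage of shared sites (right) in each of 10 equal sections of chromosome length, over the 20 chromosomes measured from position 1 to the end of the last peak. Density is highest in the first and last sections, at 3.59 and 3.69 per Mb. The share is 6.10 and 6.18% there. It is lowest in the sixth section, at 3.39% with 8 chains. It is highest, at 6.75%, in the second with 87 chains and in the seventh with 20.

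Every chromosome had chains. Chromosome 6 had the most, 41 chains with 130 sites (7.28% of its shared sites), and chromosome 16 the fewest, 14 chains with 45 sites (4.74%). The lowest share was on chromosome 18 (4.25%), although it held the chain of 8. Chromosome 13, the densest with 45.4 shared sites per Mb, had a share of 4.81%, while chromosome 1, among the sparsest with 24.2 per Mb, had 7.20%. The Spearman correlation between density and share was 0.099 over the 20 chromosomes, which share libraries and are not replicates. The 1 Mb bin with the most members was on chromosome 4 from 4000001 to 5000000, where 5 chains held 17 of 94 shared sites. After it came chromosome 11 from 3000001 to 4000000, where 5 chains held 16 of 108 sites.

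Peaks of 1 replicate alone were also counted near the sites. Both kinds of site were chosen by their shared neighbours within 2000 bp, so these shares are tied to that choice. A peak of replicate 1 alone lay within 2000 bp of 262 chained sites (16.0%). The share was 17.6% for unchained sites, 18.6% for the unchained sites in bins with members and 17.2% for all shared sites. For peaks of replicate 2 alone the shares were 1.52%, 0.817%, 0.865% and 0.870% in the same order, the first resting on 25 sites. Nothing particular to chains is read from these shares. Of the 506 chains, 152 (30.0%) had a peak of replicate 1 alone within 2000 bp of a site. A second peak of the same list within the region was rare. In replicate 1 it was present at 4 chained sites (0.244%), beside 0.212% of all shared sites. In replicate 2 it was present at 24 (1.46%), beside 1.35% of unchained and 1.36% of all shared sites.

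Replicate 2 was then used as a separate measure of chains drawn from replicate 1 alone. Peaks of replicate 1, shared or not, formed 1865 chains of 3 or more with 6306 peaks. Of these peaks 3832 were found in replicate 2 (60.8%, Wilson 95% interval 59.6 to 62.0%), against 17926 of 28960 unchained peaks (61.9%, 61.3 to 62.5%). The intervals cover counting error only. Peaks of 1 chain share surroundings and all share a library, so they are not replicates and no comparison is drawn from the intervals. Recovery followed the fold in the same way in both. Among the weakest 20% of replicate 1 peaks it was 15.2% in chains and 16.9% outside, among the middle 20% it was 66.3 and 64.5%, and among the strongest 20% it was 100 and 99.9%. As whole chains, 366 of the 1865 (19.6%) had every peak found in replicate 2, 1397 had some and 102 had none. A whole chain needs each of its peaks found, so the 19.6% cannot be set beside the 60.8% of single peaks. It was not compared with sets of unchained peaks.

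The limit of 2000 bp does not fall at a break in the spacing. Neighbouring shared sites 1900 to 2000 bp apart numbered 219, and those 2000 to 2100 bp apart numbered 205. Just inside the limit, with a gap of 1998 bp, the chain on chromosome 8 from 2480661 to 2483580 had replicate 1 folds of 15.0, 18.6 and 4.37, and a chain on chromosome 10 from 40677843 to 40681273 had 9.54, 4.42 and 3.79. Just outside, with a gap of 2007 bp, 3 sites on chromosome 17 from 20591944 to 20595587 had 7.32, 7.17 and 4.03, and 3 on chromosome 2 from 6966023 to 6968859 had 15.8, 4.86 and 4.31.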

How the data were processed

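ChIP-seq peaks of 2 replicates were analysed; no processed file of the inputs was used here. The submitters' processing notes name Bowtie 0.12.7 and MACS2. Genome build, settings and the pairing of ChIP with input were not given in the sources used here. Peaks were deposited per replicate, and peak names carry a q of 0.01. The deposited fold is a ratio of summit signal to local background. A −log10 p and a −log10 q were deposited for each summit. The deposited score equals the −log10 q times 10 with its decimals removed. These values were made by the authors within each library.

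Pileup and local background were solved from the fold (pseudocount 1) and the −log10 p under a Poisson model. A whole number met both within 0.001 at 100% of peaks of each list, with pileups of 20 to 408 and 19 to 398 fragments. Intervals at the 95% level cover counting error only. Overlapping peaks (1 bp) were merged, the widest peak of each list stood for a region, and sites at most 2000 bp apart were chained. Positions are 1-based, in the coordinates of the files. The gene table used here is of assembly 4.0. Peaks lay over 100 kb past its last gene on 4 chromosomes and ended over 1 Mb short of it on 6, so it was taken to be of another build and not used, and no gene or sequence is given.

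Chains named are the 10 with the most sites (ties by mean fold over sites and replicates) and the 10 with the largest mean fold. Chains of high background, the bins with the most members and the chains at the limit were chosen after their values were seen. Members, rules and lists were chosen with earlier results of these data known. Computations used Python 3.11.15, numpy 2.4.6, pandas 2.3.3 and scipy 1.17.1. On simulated data, 2984 of 2984 pileups and 2908 of 2908 chained sites, with part of the replicate 2 peaks removed, were recovered. Alternatives changed the chain distance, summits, thresholds, overlap, bins and measure of strength. The numbers 1 and 2 name biological replicates per the labels.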

Additional observations from a re-analysis of the deposited data

Results flagged for a closer look

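The same rule was applied to scaffolds outside the 20 chromosomes, which enter no comparison above. Among 158 shared sites on 37 scaffolds, 4 chains of 3 were found, on 4 scaffolds, with 12 sites (7.59% of the shared sites there). None had a local background above 30 fragments, and their median folds were 8.74 in replicate 1 and 8.55 in replicate 2. The other 146 shared sites on scaffolds had median folds of 6.45 and 5.19, and the difference was not tested. The 4 chains were singled out because they lie in data not otherwise used.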

How the results depend on the processing

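The number of chained sites, 1640, was 209 with a chain distance of 1000 bp and 3110 with 3000 bp; it stayed between 1359 and 1626 with replicate 2 summits, a −log10 q of at least 5, a reciprocal overlap of 50% or without high-background peaks. With replicate 2 summits, 1590 of the 1640 members were found again. Without replicate 2, all replicate 1 peaks gave 6306, and without replicate 1, all replicate 2 peaks gave 2108; these and the clear-lead setting below were chosen after seeing the data.

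The fold ratio of chained to unchained sites, 0.975 as the mean of both replicates, was 0.885 at 1000 bp, 0.994 at 3000 bp, 0.982 with replicate 2 summits, 0.981 with a −log10 q of at least 5, 0.967 with 50% overlap, 0.982 without high-background peaks, 0.994 with pileup as strength, 0.993 in 100 kb bins, 0.980 with no bins and 0.958 within deciles of region width. Without replicate 1 or 2 it was 0.971 to 0.978. The direction was not the same in both replicates under 3 of these: replicate 1 alone gave 1.001 at 3000 bp, 1.002 in 100 kb bins and 1 with pileup, while replicate 2 gave 0.986, 0.983 and 0.989. The share of middle leaders, 35.0%, was 33.6% at 1000 bp, 36.3% at 3000 bp and 36.3% with a −log10 q of at least 5, and 34.4 to 35.6% without replicate 1 or 2. The share of chains with the same leader, 78.1%, was 82.8% by pileup and 100% among chains with a clear lead, where the setting itself favours a match; otherwise it stayed between 76.5 and 78.6%. The median gap of 1207.5 bp was 763 bp at 1000 bp and 1538 bp at 3000 bp, as those limits impose, 1203 bp with replicate 2 summits, 1227 bp with a −log10 q of at least 5 and 1212 bp without high-background peaks. Other causes were not tested. Of the 10 longest chains, 8 to 10 were found again at 2000 bp, but 1 at 1000 bp and 5 at 3000 bp. Of the 10 strongest, 9 to 10 were found again at 2000 bp, 1 at 1000 bp and 4 at 3000 bp.

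No paired analysis was possible because the result comes from no test between groups of libraries. Sites need a peak in both lists, so replicate 2, with fewer peaks, limits which chains are seen.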
